A study of Mus musculus with 6 samples.

Results

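The enzymes that write, erase and read chemical marks on RNA were examined in whole uteri of female mice at postnatal day 21, with Nat10, the gene targeted in the mice, at their head. The list holds 55 named genes, and a gene was included when a row of the deposited tables carried exactly its symbol. Rows were found for 54 of the 55 genes among the 20637 genes listed. Bud23, a small-subunit rRNA methyltransferase gene, was not analysed here. The study compared 3 libraries from Nat10 f/f uteri, in which Nat10 is flanked by recombination sites (floxed controls), with 3 from Nat10 d/d uteri, in which it is deleted (Nat10-deleted). The Cre driver, the cells it acts in, the deleted exons, whether controls carry Cre, the strain, and whether each library is 1 animal or a pool are not given in the sources used here. For that reason p-values measure the spread between these libraries only. The aim, as the series title gives it, was to find expression changes in the Nat10-deleted uterus.

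Nat10 transfers acetyl groups to cytidines, making acetylcytidine (ac4C) in small-subunit rRNA and in certain tRNAs, and it has also been reported to act on mRNA. Thumpd1 is the adaptor that brings Nat10 to tRNA. Other enzymes of the list place methyl groups on adenosine (m6A), cytidine (m5C) or guanosine (m7G), turn uridine into pseudouridine or dihydrouridine, deaminate adenosine to inosine, or build the modified bases of the tRNA anticodon loop. Erasers remove m6A again, and readers bind it and pass the mRNA on to translation, decay or export.

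Levels are given as deposited FPKM, that is, fragments counted per length of transcript and per depth of library, so that levels of different genes can be set side by side. Where 3 values are listed for a group they are those of replicates 1, 2 and 3. Changes are Nat10-deleted minus control on the log2(FPKM + 1) scale from limma, with p-values adjusted by Benjamini-Hochberg over all 12640 genes tested, those at 1 FPKM or more in at least 3 libraries. Of the 54 listed genes of the set, 52 were tested.

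Nat10 (ENSMUSG00000027185) lies on chromosome 2, on the minus strand at 103721256 to 103761270 of mm10, with 29 merged exons in GENCODE M21 and no exon shared with another annotated gene. The 250 bases before its start are shown because this is the gene the mice were made to lose, and those before Ythdf2 and Dus1l because both separate the groups below. All are from RefSeq (GRCm38.p6, the mm10 build), on the minus strand and 5′ to 3′, with CG dinucleotides in capitals. Those of Ythdf2 and Dus1l were shortened to the 203 and 242 bases that lie outside the annotated gene.
Nat10, chr2:103761271-103761520: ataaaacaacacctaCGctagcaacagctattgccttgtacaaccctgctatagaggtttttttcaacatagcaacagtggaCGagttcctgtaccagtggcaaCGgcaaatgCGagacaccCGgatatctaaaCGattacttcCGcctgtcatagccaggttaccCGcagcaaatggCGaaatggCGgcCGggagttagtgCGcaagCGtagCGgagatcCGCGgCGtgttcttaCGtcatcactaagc
Ythdf2, chr4:132212304-132212506: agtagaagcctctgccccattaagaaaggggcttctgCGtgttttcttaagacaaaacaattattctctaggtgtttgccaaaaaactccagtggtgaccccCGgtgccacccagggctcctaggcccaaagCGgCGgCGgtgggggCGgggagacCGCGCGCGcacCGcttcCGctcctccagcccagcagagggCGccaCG
Dus1l, chr11:120796404-120796645: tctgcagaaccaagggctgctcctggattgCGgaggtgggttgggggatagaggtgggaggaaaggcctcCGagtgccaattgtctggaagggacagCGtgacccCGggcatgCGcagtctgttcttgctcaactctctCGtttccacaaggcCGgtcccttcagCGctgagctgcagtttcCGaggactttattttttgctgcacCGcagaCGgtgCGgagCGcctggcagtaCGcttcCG
Windows of 250 bases were held for 46 of the 54 genes, 58 windows in all because some genes have several starts. Their median number of CG dinucleotides was 18, which is also the number in the Nat10 window, against 6 over all 32851 windows of the table. The GC box GGGCGG, searched on both strands, was in 51.7% of the windows of these genes and in 32.7% of all windows. The ETS core CCGGAA was in 27.6% and 12% respectively, the cAMP response element TGACGTCA in 6.9% (4 windows) and 1.55%, and the E-box CACGTG in 10.3% (6 windows) and 6.02%. The E2F motif TTTGGCGC was in 1.72% (1 window) and 0.417%, and the core of the interferon-stimulated response element in 3.45% (2 windows) and 2.98%. The windows of these genes were richer in GC (median 60.6% against 52.4%). Windows of like composition were not compared, and enrichment of a motif was not tested. None of these motifs was found in the Nat10 window, GGGCGG was found in that of Ythdf2 and CCGGAA in that of Dus1l, where it reaches into the 8 bases that are not printed.

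The libraries were of similar depth: against 1 for control replicate 1, the depth estimated from the lowest values was between 0.805 and 1.016. Absolute depth is unknown. Markers of epithelium, stroma, smooth muscle and endothelium, the tissues of a uterus, were all above 0 in some library. Nat10-deleted replicate 2 stood apart in proliferation genes, with a summed level of 653 FPKM over 16 genes against 116 to 279 in the other 5 libraries. Control replicate 1 stood apart in blood markers, with 5581 FPKM summed over 6 genes, where the other controls held 2629 and 852 and the deleted libraries 709 to 1723. Over all genes tested, 6.12% were higher in deleted libraries and 4.6% lower without overlap between the groups. Of 9 epithelial markers, 4 were higher and 1 was lower in deleted libraries without overlap. Their summed level overlapped (691 to 782 FPKM in deleted, 609 to 708 in control libraries), while their median on the log2 scale relative to the control mean did not (0.16 to 0.23 against -0.11 to 0.10). Of 7 endothelial markers, 3 were lower without overlap, and the sum was 221 to 245 FPKM in deleted and 257 to 287 in control libraries. Of 9 stromal markers, 2 were lower without overlap. The stromal sum was lower in all deleted libraries (2077 to 2202 against 2291 to 2490 FPKM), but most of it is Dcn and Col1a1, and the median relative to the control mean overlapped (-0.35 to -0.0077 against -0.11 to 0.039). The summed level of 7 ovary and oviduct markers was also lower in all deleted libraries (21.9 to 32.5 against 33.6 to 39.3 FPKM). Most of that sum is Foxl2 (18.1 to 24.0 against 26.7 to 28.9 FPKM), the 1 gene lower without overlap. Ovgp1 overlapped (0.817 to 4.01 against 1.73 to 6.42 FPKM), and the oocyte gene Zp3 was at 0 in every library. Of 5 mesothelial markers, 2 (Msln and Lrrn4) were lower without overlap, with overlapping sums (61.8 to 73.2 against 60.7 to 77.7 FPKM). Of 7 smooth muscle markers, 1 (Lmod1) was lower without overlap, with overlapping sums (3727 to 4781 against 4003 to 4607 FPKM). In such bulk samples, fewer cells of a type and less RNA per cell cannot be told apart.

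In the control uterus these enzymes were expressed at ordinary levels. The median control mean of the 54 genes was 13.3 FPKM, the same to 3 digits as the median of all genes tested (13.3), and 27 of the 54 lay above it. Emg1, a small-subunit rRNA methyltransferase gene, had the highest level, followed by Trmt112, Ythdc1, Fto and Trmt1. There were 10 genes at 30 FPKM or more, 24 between 10 and 30, 18 between 1 and 10, and 2 under 1. Nat10 was the 28th of the 54. Of the 53 pairs of neighbours in this order, 46 had overlapping control ranges, so the exact order is not resolved within most of the list.

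**Figure D1:**
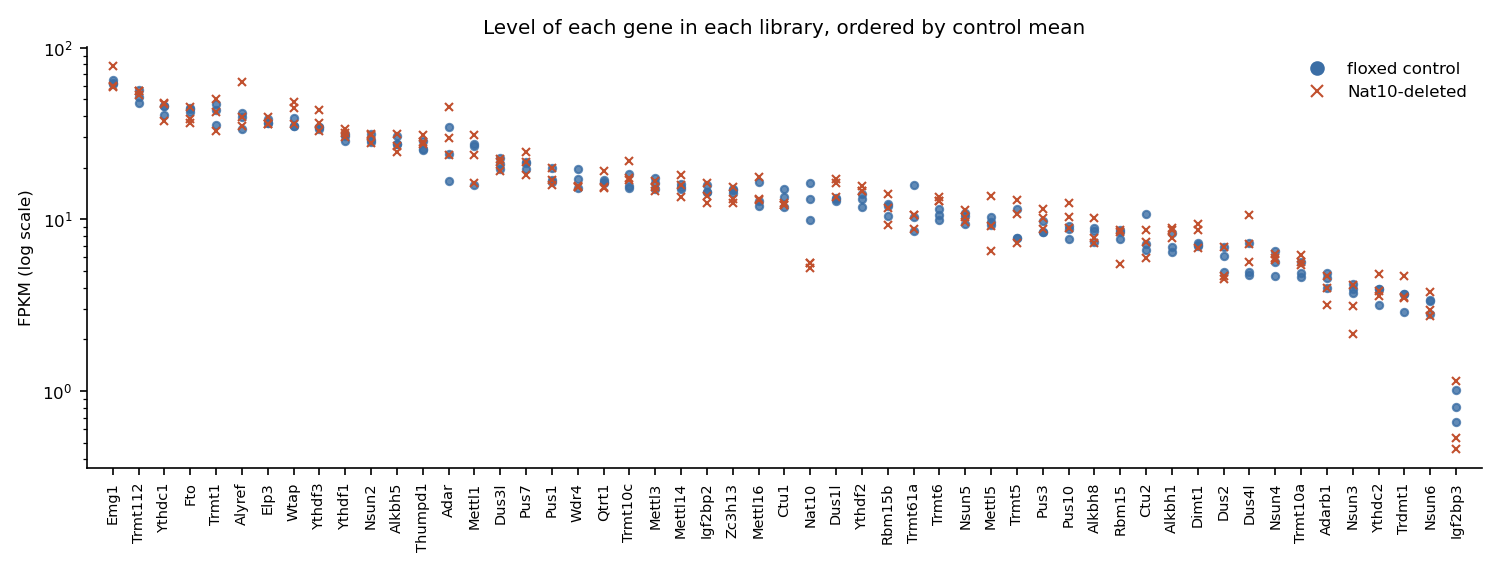
Level of each gene in FPKM on a log axis, ordered by control mean, with a circle for each floxed control library and a cross for each Nat10-deleted library. Igf2bp1, listed at 0 in some libraries, cannot be drawn on this axis. Nat10 is the gene whose crosses all lie far below its circles.

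Nat10 was lower in every deleted uterus, at less than the lowest control, and was the only gene of the set that was lower without overlap. It was at 13.2, 16.4 and 9.95 FPKM in controls and at 5.57, 5.23 and 5.53 FPKM in deleted libraries. The controls differed among themselves (13.2 ± 3.2 FPKM, SD, n = 3), while the deleted libraries lay close together (5.45 ± 0.184 FPKM, SD, n = 3), at 41.4% of the control mean. The change was -1.11 on the log2 scale (SE 0.17, 95% interval -1.51 to -0.71). By unadjusted p, Nat10 ranked 5th of the 12640 genes tested (limma p 0.000265), and by size of decrease 8th. The limma adjusted p was 0.669. With array quality weights it was 0.0386, and over all alternatives it ranged from 0.0386 to 1. An exact two-sided permutation test gave 0.1, the smallest value that 3 libraries against 3 allow. Gene-level values do not tell transcripts of undeleted cells from transcripts that lack the deleted exons.

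Thumpd1, the tRNA adaptor of Nat10, was not lower. Its values were 25.7, 28.8 and 25.2 FPKM in controls and 31.1, 27.4 and 28.1 FPKM in deleted libraries, and the groups overlapped. The change was 0.12 (SE 0.11, interval -0.14 to 0.37, limma adjusted p 0.943). It was 0.064 without deleted replicate 1, 0.21 with array quality weights and 0.17 without control replicate 2, where the groups no longer overlapped. The level of Nat10 as a ratio to that of Thumpd1 was 0.492 ± 0.0887 in controls and 0.189 ± 0.00895 in deleted libraries (SD, n = 3), without overlap. Among 7 such ratios between partners or counterparts computed here, this one had the smallest exact permutation p (0.1, two-sided, 0.7 after Benjamini-Hochberg adjustment over the 7). Since its numerator is the deleted gene, the ratio restates the drop of Nat10 and is no further result. The value of 0.1 is also the smallest that this test can give here.

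**Figure D2:**
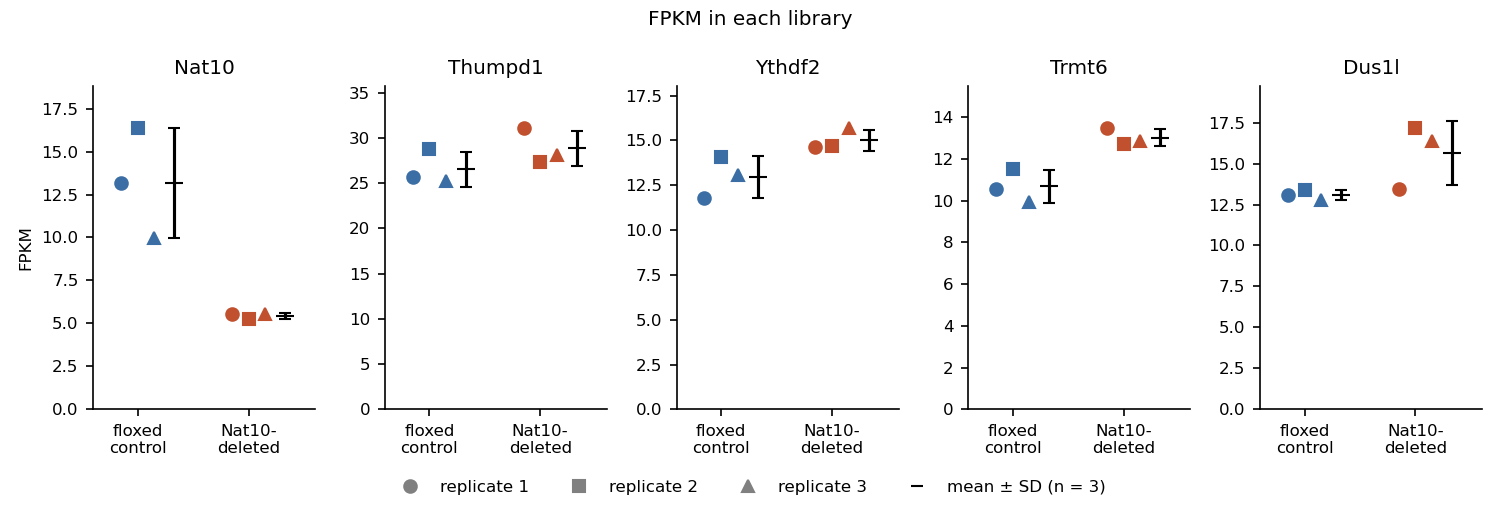
FPKM of Nat10, its adaptor Thumpd1 and the 3 genes higher in all deleted libraries (Ythdf2, Trmt6, Dus1l), with a symbol for each replicate and the mean ± SD of 3 libraries beside them. Nat10 lies between 9.95 and 16.4 in controls and between 5.23 and 5.57 in deleted libraries, while the other changes are small against the axis, which starts at 0.

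Across the other 51 tested genes no change of that size was seen. None of the 52 passed an adjusted p of 0.05 in limma, where 0% of all genes tested did, and 2 had an unadjusted p under 0.05, Nat10 and Trmt6, against 4.98% of all genes. Apart from Nat10, the changes lay between -0.29 and 0.38, and 50 of the 51 intervals included 0. The intervals also bound the size on the log2(FPKM + 1) scale. In 50 of the 51 the 95% interval stayed within 1 unit of 0 in either direction, the exception being Adar. Adding 1 shrinks the changes of genes at low FPKM, so their fold changes are bounded less tightly. With 0.1 added instead, the change was 0.44 for Dus4l (0.38 with 1 added) and -0.37 for Nsun3 (-0.29 with 1 added). No gene other than Nat10 had a change of more than 0.5 in either direction (1 of 52, 1.92%), against 3.26% of all genes tested. With array quality weights or without deleted replicate 3 there were 3 such genes, with Dus4l and Adar added (background 8.13% and 6.7%). There were 2 without control replicate 2, with Dus4l added, and 2 without control replicate 3, with Adar added (background 4.43% and 3.76%). The median change of the 51 was 0.03 and that of all genes tested 0.03. After quantile normalization, median centring or upper-quartile scaling the median of the 52 was slightly negative, at -0.02, -0.01 and -0.02. That of all genes was -0.0042, -7.2e-05 and -0.0089, where median centring sets it near 0 by construction.

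Without overlap between the groups, 3 of the 52 genes were higher in all deleted libraries (5.77%, background 6.12%) and 1 was lower (1.92%, background 4.6%). These shares were close to or below those of all genes, and the background itself turned with scaling, to 4.26% higher and 6.55% lower after quantile normalization. In that setting Fto was also lower without overlap, making 2 of 52 (3.85%). The 3 were Ythdf2, Trmt6 and Dus1l, from different classes, and the 1 was Nat10. After upper-quartile scaling Dus1l overlapped, leaving 2, while Ythdf2 and Trmt6 stayed separate under every scaling. Fewer libraries overlap less often, so leaving one out can only add to these counts. With a library left out, 4 to 11 genes were higher (background 8.91% to 17.5%) and 1 to 7 lower (background 6.06% to 14.7%). The most were higher without control replicate 2, 11 of 52 or 21.2% against 11.9% of all genes, and the most lower without Nat10-deleted replicate 3, 7 of 52 or 13.5% against 14.7%. Markers of the cell types given above move with the same groups in the measures named there, and their part in these differences was not tested.

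**Figure D3:**
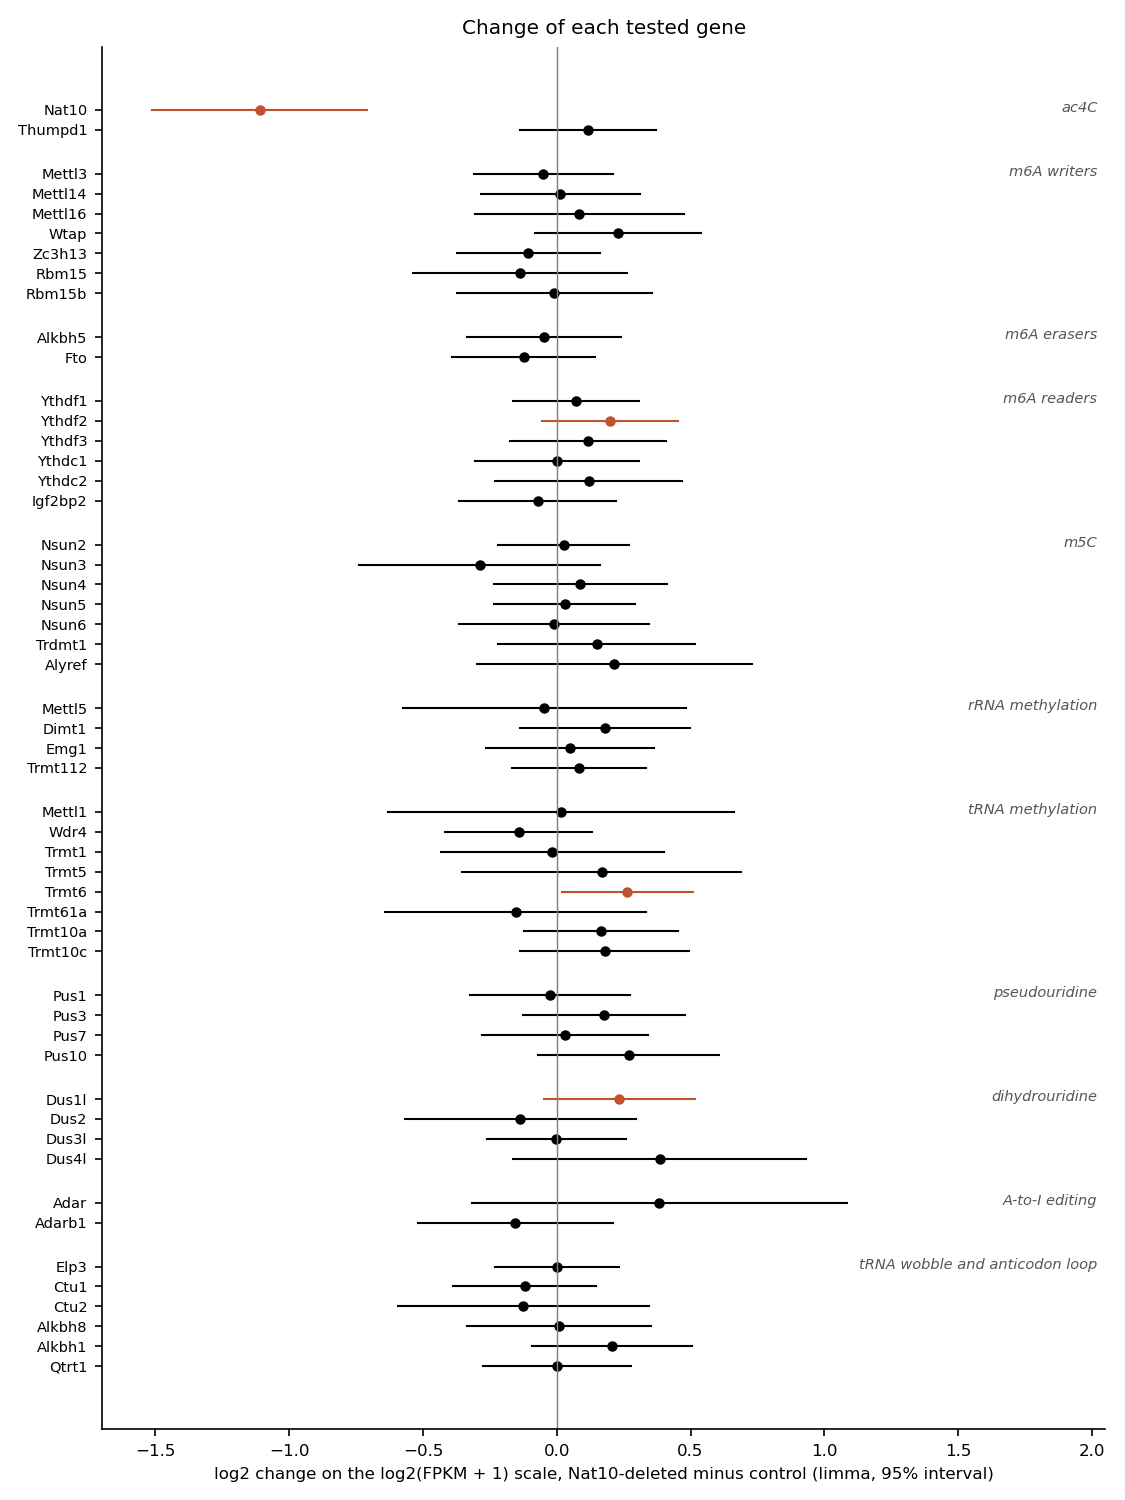
Change of each of the 52 tested genes on the log2(FPKM + 1) scale, Nat10-deleted minus control, as a point with its 95% limma interval, grouped by class. The 4 genes whose groups do not overlap are in red. Nat10, at -1.11, is the only interval that lies wholly below 0.

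Among the m6A writers no gene separated the groups, and of the 7 genes 3 were higher and 4 lower on average (median change -0.01). Of all genes tested, 56.6% were higher on average. Mettl3, the catalytic subunit, was at 16.2 ± 1.25 FPKM in controls and 15.6 ± 1.12 in deleted uteri, and Mettl14, its RNA-binding partner, at 15.5 ± 0.519 and 15.7 ± 2.31 (SD, n = 3). The ratio of Mettl3 to Mettl14 was accordingly near 1 in both groups, 1.05 ± 0.103 and 1.00 ± 0.128. Wtap, which anchors the complex in nuclear speckles, had the highest level of the class and its smallest p. It was at 34.8, 39.1 and 35.2 FPKM in controls and at 48.4, 44.4 and 36.2 FPKM in deleted libraries (change 0.23, interval -0.08 to 0.54, limma adjusted p 0.922). Deleted replicates 1 and 2 lay above every control and replicate 3 within their range. The change was 0.14 without deleted replicate 1, 0.34 without deleted replicate 3 and 0.37 with array quality weights. Rbm15, which guides the complex to its sites, varied most, at 7.64, 8.65 and 8.47 FPKM in controls and 5.50, 8.68 and 8.41 FPKM in deleted libraries. Only deleted replicate 1 was low, and without it the change of -0.14 became 0.05. It was -0.41 with array quality weights. The same library was the lowest of all 6 in 5 of the 7 writers, and also in both m6A erasers. Of the 52 genes of the set, 10 (19.2%) were lowest in it, and of all genes tested 18.3%. The class median relative to the control mean was -0.19 in deleted replicate 1 and 0.21 in replicate 2. Zc3h13, a scaffold, Rbm15b, a paralogue of Rbm15, and Mettl16, which modifies a spliceosomal RNA, had changes of -0.11, -0.01 and 0.08.

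Both m6A erasers were well expressed and neither separated the groups. Fto was at 44.6, 44.1 and 42.1 FPKM in controls and 36.4, 45.1 and 38.7 FPKM in deleted libraries (change -0.12, interval -0.39 to 0.14, limma adjusted p 0.943). Deleted replicates 1 and 3 lay below every control, and replicate 2 above them all. The change was -0.059 without deleted replicate 1, -0.21 without deleted replicate 2 and -0.23 with array quality weights. Alkbh5 was at 27.6, 30.6 and 27.5 FPKM in controls and 24.6, 26.9 and 31.6 FPKM in deleted libraries, which spanned the control range on both sides. The level of Fto was 1.53 ± 0.086 times that of Alkbh5 in controls and 1.46 ± 0.227 times in Nat10-deleted libraries (SD, n = 3).

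The m6A readers hold Ythdf2, 1 of the 3 genes that were higher without overlap. Ythdf2 recruits deadenylation machinery to m6A-bearing mRNA. Its level was 11.8, 14.1 and 13.1 FPKM in controls and 14.6, 14.7 and 15.7 FPKM in deleted libraries, 13 ± 1.16 against 15 ± 0.584 (SD, n = 3). The gap between the highest control and the lowest deleted library was thus small. The change was 0.20 (SE 0.11, interval -0.06 to 0.45, limma adjusted p 0.922). Its cytoplasmic paralogues had higher levels and overlapping groups, Ythdf1 with a change of 0.07 and Ythdf3 with 0.12. Ythdf3 was highest in deleted replicate 1, at 43.2 FPKM, where the other 5 libraries held 32.6 to 36.2. Ythdc1, the nuclear reader, had the highest level of the class, at 40.3, 46.0 and 45.6 FPKM in controls and 47.3, 37.4 and 47.8 FPKM in deleted libraries (change 0.00). Ythdc2, a helicase known for its part in meiosis, was low and had the widest range of the 6 tested readers, at 3.16, 3.91 and 3.94 FPKM in controls and 4.81, 3.84 and 3.59 FPKM in deleted libraries. Its change of 0.12 became 0.018 without deleted replicate 1, 0.037 without control replicate 1 and 0.30 with array quality weights.

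The genes of the Igf2bp proteins, which stabilise bound mRNAs, differed strongly in level. Igf2bp2 was the expressed one, at 14.9 ± 0.84 FPKM in controls and 14.2 ± 1.98 in Nat10-deleted libraries (SD, n = 3; change -0.07). Igf2bp3 was at 0.806, 1.02 and 0.664 FPKM in controls and 0.531, 0.460 and 1.14 FPKM in deleted libraries, too low to be tested. Igf2bp1 was listed at 0 in control replicate 2 and in deleted replicates 1 and 2. Its values were 0.00691 and 0.0399 FPKM in control replicates 1 and 3 and 0.0662 FPKM in deleted replicate 3. Of the annotated exonic bases of Igf2bp3, 35.2% overlap Malsu1 on the other strand, and since the strand setting is not given in the sources used here, its few reads may belong to either gene.

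Of the 7 m5C genes none separated the groups. Nsun2, the main tRNA and mRNA m5C methyltransferase, was steady at 27.9 to 31.5 FPKM over all 6 libraries. Nsun3, which modifies a mitochondrial tRNA, had the smallest p of the class, at 4.18, 3.95 and 3.74 FPKM in controls and 4.14, 2.14 and 3.13 FPKM in deleted libraries (change -0.29, interval -0.74 to 0.16, limma adjusted p 0.924). Deleted replicate 1 was as high as the controls, and replicates 2 and 3 lay below them. The change was -0.10 without deleted replicate 2, -0.46 without deleted replicate 1 and -0.024 with array quality weights. Alyref, an mRNA export adaptor that reads m5C, had the highest level and the widest range. It was at 39.6, 41.5 and 33.6 FPKM in controls and 39.4, 63.5 and 34.8 FPKM in deleted libraries. The high value belongs to deleted replicate 2, the library with the high proliferation genes, and without that library the change of 0.22 became -0.04. It was 0.057 with array quality weights. Among the controls, replicate 2 had the highest level of Alyref and the lowest summed level of proliferation genes (188 FPKM). The part of proliferation in the level of Alyref was not tested. Nsun4 (mitochondrial rRNA), Nsun5 (large-subunit rRNA), Nsun6 and Trdmt1 (tRNA) were at 2.72 to 11.3 FPKM with changes of 0.09, 0.03, -0.01 and 0.15.

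Small-subunit rRNA is also the main substrate of Nat10, and 4 genes of its methylation are listed. None of them separated the groups, and 3 of the 4 were higher on average, where 56.6% of all genes tested were. Emg1, which methylates a pseudouridine, was at 65.0, 61.3 and 62.0 FPKM in controls and 58.8, 78.1 and 59.7 FPKM in deleted libraries. Dimt1, which makes dimethyladenosine, had the smallest p, at 6.95, 7.32 and 7.08 FPKM in controls and 9.41, 8.62 and 6.77 FPKM in deleted libraries (change 0.18, interval -0.14 to 0.50, limma adjusted p 0.926). Here deleted replicates 1 and 2 were above the narrow control range and replicate 3 below it. The change was 0.091 without deleted replicate 1, 0.30 without deleted replicate 3 and 0.32 with array quality weights. Mettl5, which places a single m6A, was at 9.60, 10.4 and 9.25 FPKM in controls and 9.11, 13.7 and 6.56 FPKM in deleted libraries. Its change of -0.05 became 0.18 without deleted replicate 3. Trmt112, the activating partner of Mettl5 and of Bud23, was at 51.9 ± 4.46 FPKM in controls and 55 ± 1.83 in Nat10-deleted libraries (SD, n = 3; change 0.08). In Dimt1, 37.3% of the exonic bases overlap Kif2a on the other strand, in Trmt112 36.1% overlap Prdx5 and in Mettl5 17.5% overlap Ssb, so these values may include reads of the neighbours. In all, 12 of the 54 genes had at least 10% of their exonic bases within another gene.

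The tRNA methylation genes include Trmt6, which had the smallest unadjusted p after Nat10. Trmt6 is the non-catalytic partner of Trmt61a in the enzyme that makes m1A in tRNA. It was at 10.6, 11.5 and 9.94 FPKM in controls and 13.5, 12.7 and 12.8 FPKM in deleted libraries, 10.7 ± 0.803 against 13.0 ± 0.403 (SD, n = 3). All deleted libraries were thus above all controls. The change was 0.26 (SE 0.11, interval 0.02 to 0.51, limma p 0.0382, limma adjusted p 0.922). In 8 of 16 alternatives, among them all 3 scalings and the replicate block, its unadjusted limma p was no longer under 0.05 (range 0.00575 to 0.138). Its partner Trmt61a was lower on average, with 8.56, 15.8 and 10.3 FPKM in controls and 10.6, 8.77 and 10.6 FPKM in deleted libraries (change -0.15, interval -0.64 to 0.33). The ratio of Trmt6 to Trmt61a was 0.977 ± 0.252 in controls and 1.31 ± 0.126 in Nat10-deleted libraries (SD, n = 3; exact two-sided permutation p 0.2).

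Mettl1, the catalytic subunit for m7G in tRNA, had the widest range of the tRNA methylation class without a difference between groups. It was at 26.7, 27.5 and 15.8 FPKM in controls and 23.8, 31.1 and 16.2 FPKM in deleted libraries (change 0.02, interval -0.63 to 0.66). The low libraries were replicate 3 of each group. Wdr4, its partner, was at 17.4 ± 2.17 FPKM in controls and 15.6 ± 0.163 in Nat10-deleted libraries (SD, n = 3; change -0.14), and the ratio of Mettl1 to Wdr4 ranged from 0.915 to 2.01 over the 6 libraries. Trmt1, which makes dimethylguanosine, had the highest level, at 43.2, 35.3 and 47.2 FPKM in controls and 42.1, 32.9 and 50.0 FPKM in deleted libraries. Trmt5, Trmt10a and Trmt10c, which methylate guanosines of cytosolic and mitochondrial tRNA, had changes of 0.17, 0.16 and 0.18 with intervals that included 0.

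Pseudouridine synthases did not separate the groups either, and 3 of the 4 were higher on average (56.6% of all genes tested). Pus7, which acts on tRNA and mRNA, had the highest level, at 19.8, 21.7 and 21.2 FPKM in controls and 21.6, 18.2 and 24.8 FPKM in deleted libraries. Pus10 had both the smallest p and the widest range, at 8.78, 9.21 and 7.69 FPKM in controls and 12.5, 10.3 and 8.90 FPKM in deleted libraries (change 0.27, interval -0.07 to 0.61, limma adjusted p 0.922). Its deleted replicates 1 and 2 were above every control, and replicate 3 was inside their range. The change was 0.15 without deleted replicate 1 and 0.44 with array quality weights. Pus3 showed the same order of deleted libraries, at 11.5, 10.1 and 8.83 FPKM, against 8.39 to 9.76 in controls. Pus1, which also acts in mitochondria, had a change of -0.03.

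The dihydrouridine synthases place dihydrouridine in tRNA, and their gene Dus1l was higher in all deleted libraries by a narrow margin. It was at 13.1, 13.4 and 12.8 FPKM in controls and 13.4, 17.2 and 16.4 FPKM in deleted libraries, 13.1 ± 0.31 against 15.6 ± 1.97 (SD, n = 3). Deleted replicate 1 was level with the highest control to 3 digits, and replicates 2 and 3 stood clearly above. The change was 0.23 (SE 0.12, interval -0.05 to 0.51, limma adjusted p 0.922), and 0.079 with array quality weights. Dus4l had the largest positive change of the set together with Adar, but also a wide range, at 4.76, 7.30 and 4.94 FPKM in controls and 10.6, 7.19 and 5.64 FPKM in deleted libraries (change 0.38, interval -0.16 to 0.93). Deleted replicate 1 alone lay above the controls, and without it the change was 0.17. It was 0.57 without deleted replicate 3, 0.55 without control replicate 2, where the groups no longer overlapped, and 0.75 with array quality weights. Dus3l was even across the libraries, at 20.9, 19.6 and 22.7 FPKM in controls and 21.6, 19.2 and 22.4 FPKM in deleted libraries, and Dus2 had a change of -0.14.

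Adar, the adenosine deaminase that edits double-stranded RNA and whose long form is induced by interferon, varied most of all genes of the set other than Nat10. Its level was 16.7, 24.0 and 34.3 FPKM in controls and 45.1, 29.7 and 23.6 FPKM in deleted libraries, so that the groups overlapped widely (change 0.38, SE 0.30, interval -0.32 to 1.08, limma adjusted p 0.926). Control replicate 1 was lowest and deleted replicate 1 highest, and the change was 0.14 without the former, 0.13 without the latter, 0.59 without deleted replicate 3, 0.63 without control replicate 3 and 0.84 with array quality weights. Interferon-stimulated genes were looked at beside it after its values had been seen. Their summed level over 10 genes was 122, 287 and 617 FPKM in controls and 1315, 538 and 342 FPKM in deleted libraries. The order of the 6 libraries was the same for both, except that control replicate 2 and deleted replicate 3 changed places. The part of interferon-stimulated expression in the level of Adar was not tested. In Adar 22.8% of the exonic bases overlap Chrnb2 on the other strand. Adarb1, which edits neuronal receptor transcripts, was at 4.47 ± 0.438 FPKM in controls and 3.95 ± 0.77 in Nat10-deleted libraries (SD, n = 3; change -0.15).

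**Figure D4:**
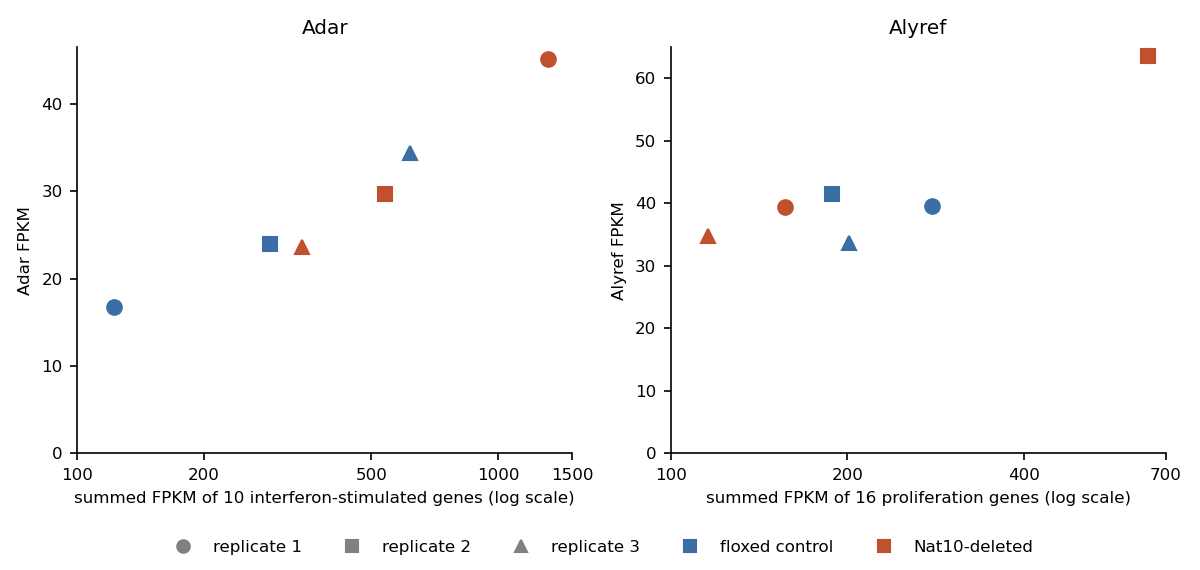
FPKM of Adar against the summed FPKM of 10 interferon-stimulated genes (left) and FPKM of Alyref against that of 16 proliferation genes (right), with log horizontal axes and a symbol for each library. Adar is lowest in control replicate 1 (16.7) and highest in deleted replicate 1 (45.1), the ends of the interferon axis, and Alyref stands out in deleted replicate 2 (63.5) only.

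The genes of wobble uridine and anticodon loop modification had a median change of 0.00, and none separated the groups. Elp3, the catalytic subunit of Elongator, had the highest level and lay at 36.6, 38.3 and 36.5 FPKM in controls and 36.0, 35.8 and 39.6 FPKM in deleted libraries (change -0.00, interval -0.23 to 0.23). Ctu2, a subunit of the thiolase that adds sulphur to wobble uridine, had the widest range, at 7.17, 10.7 and 6.62 FPKM in controls and 7.36, 8.70 and 5.93 FPKM in deleted libraries. The ratio of Ctu1, its partner, to Ctu2 was 1.70 ± 0.327 in controls and 1.71 ± 0.35 in Nat10-deleted libraries (SD, n = 3). Alkbh1, a tRNA demethylase and oxidase, had the smallest p, at 6.43, 8.31 and 6.91 FPKM in controls and 7.77, 8.72 and 8.88 FPKM in deleted libraries (change 0.21, interval -0.09 to 0.51, limma adjusted p 0.922). Without control replicate 1 the change was 0.14. Alkbh8, which methylates wobble uridine, and Qtrt1, which inserts queuine, had changes of 0.01 and 0.00.

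Spread within the groups was larger among the deleted libraries. The SD of the log2 values was larger in deleted than in control libraries for 38 of the 52 genes (73.1%), and for 73.9% of all genes tested. Deleted replicates 1, 2 and 3 were the highest of the 6 libraries for 14, 15 and 11 of the 52 genes, and the controls for 2, 7 and 3. These are 26.9%, 28.8% and 21.2%, and 3.85%, 13.5% and 5.77%. Over all genes tested, the deleted replicates were highest for 18.5%, 30.1% and 22.1% and the controls for 9.42%, 8.87% and 11%. Control replicate 1 was the lowest library for 13 of the 52 (25%), against 10.4% of all genes. Nat10 went the other way, with an SD on the log2 scale of 0.33 in controls and 0.04 in deleted libraries.

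**Figure D5:**
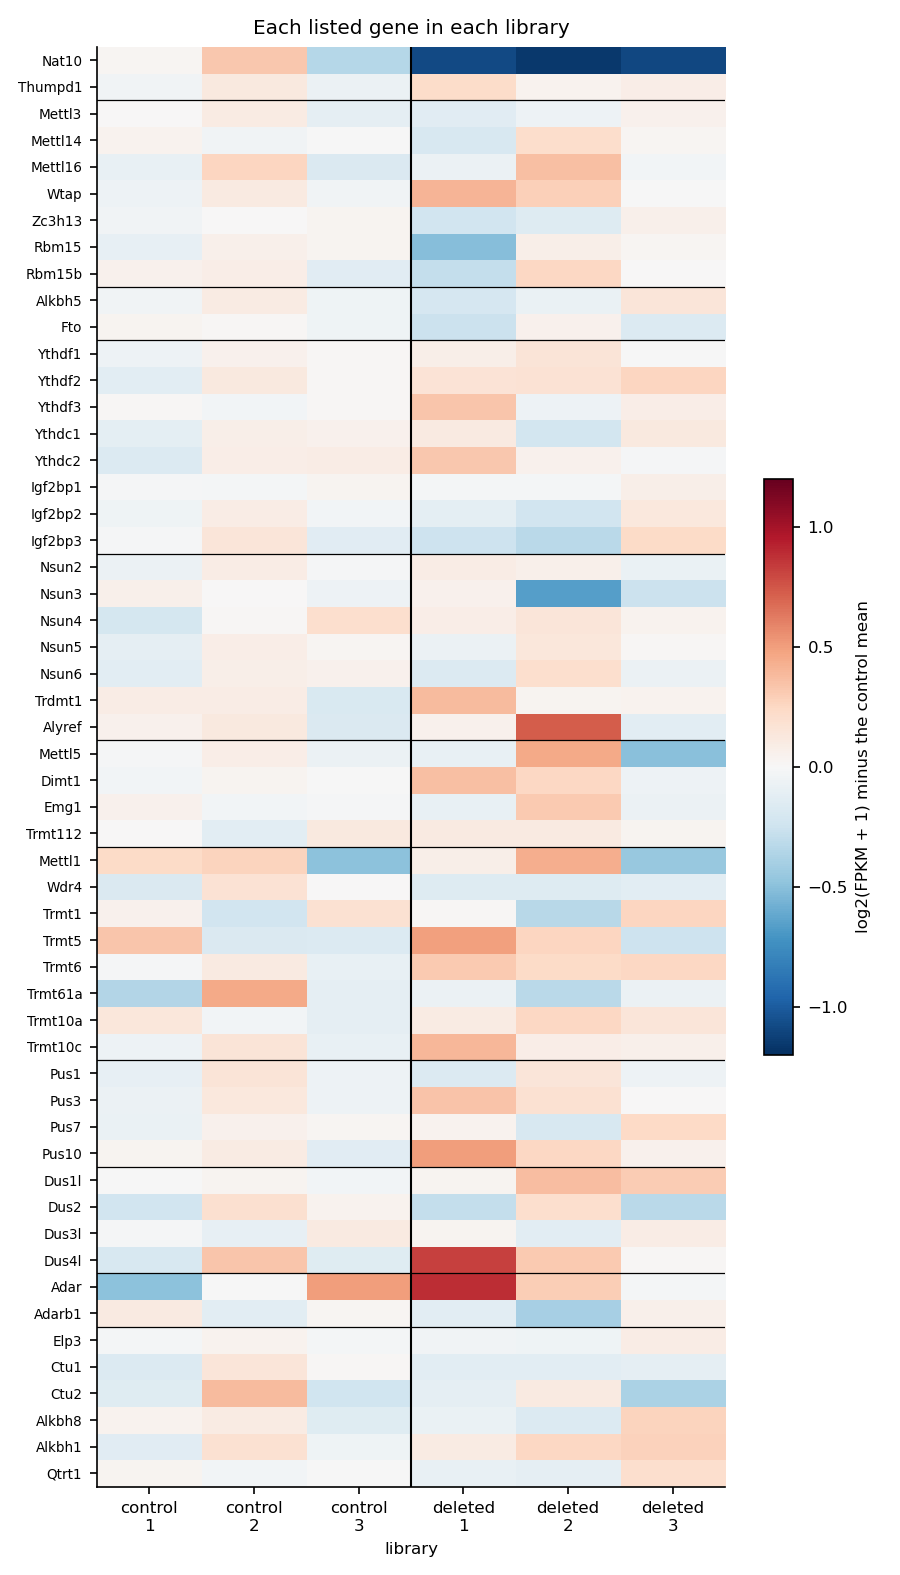
Each of the 54 listed genes (rows, in class order, classes parted by lines) in each library (columns), as log2(FPKM + 1) minus the mean of the controls. The Nat10 row is blue in all 3 deleted libraries, while in the other rows the strongest colours sit in single libraries, such as Adar and Dus4l in deleted replicate 1 and Alyref in deleted replicate 2.

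A further list of 80 RNA modification genes outside the set was read in the same fit, of which 75 had a row and 73 were tested. None passed an adjusted p of 0.05 in limma, and 3 had an unadjusted p under 0.05 (4.11%, background 4.98%), all of them higher. Groups did not overlap for 6 higher genes (8.22%, background 6.12%) and 1 lower gene (1.37%, background 4.6%). The largest of these changes was in Zcchc4, which methylates large-subunit rRNA, at 5.95, 5.51 and 5.43 FPKM in controls and 8.87, 6.89 and 9.24 FPKM in deleted libraries (change 0.48, interval 0.17 to 0.80, limma adjusted p 0.922). Mettl6, a tRNA methyltransferase gene, was at 13.4 ± 0.873 FPKM in controls and 18.6 ± 3.01 in Nat10-deleted libraries (SD, n = 3; change 0.44). Gar1, a core protein of the pseudouridylation particles, was at 21.8 ± 3.6 and 29.6 ± 3.78 FPKM (SD, n = 3; change 0.43). Trmt11, which methylates tRNA guanosine, was higher by 0.27, and Prrc2a, an m6A reader, was the lower gene, with a change of -0.26. The median change of the 73 was 0.04, against 0.03 over all genes tested.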

How the data were processed

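The values are FPKM per gene, deposited by the authors as 1 table per library. HISAT2 2.2.1, Cufflinks 2.2.1 and the build mm10 are listed per the submitters' processing notes, with no role or order. That the unit is FPKM was inferred from Cufflinks and from the values. Annotation, gene filter and strand setting are not given in the sources used here. Per the labels' protocols, TRIzol was used for the RNA and a TruSeq kit for poly(A) libraries. Groups and replicate numbers came from the sample titles. No 2 libraries were identical.

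Values were analysed as log2(FPKM + 1) by limma (version 3.58.1, R version 4.3.3), with group as the only term and a trended empirical Bayes prior, two-sided, at an adjusted p of 0.05, over the 12640 genes at 1 FPKM or more in at least 3 libraries. No count test was run, since the files hold no counts. Relative depth was read from the most frequent ratio between libraries among values whose product with transcript length was under 100. Same-numbered libraries did not deviate together (correlations -0.341, -0.029 and 0.1), so the numbers were not taken as pairs. On simulated data for this comparison (12640 genes, 200 changed), 78.3% of genes changed by 1 log2 unit and 8.38% of those changed by 0.5 were called, and 5.56% of calls were false. The simulated noise was independent between genes and equally wide in both groups. In the data the deleted libraries spread more (median SD 0.21 against 0.12 in controls). There 48 genes had an estimated change of more than 1 log2 unit and 0 were called, so the simulated rates do not carry over to the data. Positions and exon overlaps are from GENCODE M21 (basic set).

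The genes and lists were chosen with earlier results of these data known. Every gene of the set is named. Values in each library are given for Nat10, Thumpd1, genes whose groups do not overlap, and in each class the genes with the highest control mean, the smallest p and the widest range. From the further list, the 5 largest changes without overlap are named. Leukocyte markers (7 genes) were also summed, at 67.7 to 101 FPKM in control and 75.6 to 110 in deleted libraries.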

Additional observations from a re-analysis of the deposited data

How the results depend on the processing

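No gene of the set was called by limma under any of 16 alternatives except Nat10 with array quality weights (log2 change -1.09, adjusted p 0.0386, 1 gene of the set and 316 of all genes called). All other settings but 1 gave 0 genes over the whole table. The exception left out Nat10-deleted replicate 2, and the range over the 6 left-out libraries was 0 to 12. At an unadjusted p under 0.05 the set held 1 to 5 genes, where 2.75% to 13.6% of all genes passed (5 without Nat10-deleted replicate 3, where 11.1% did), and 15 with array quality weights, where 29.5% did. The Nat10 change was -1.28 to -0.95 with a library left out and -1.23 to -1.09 otherwise. With the replicate number as a block (replicate block) the Nat10 change was -1.11 (adjusted p 0.849) and 0 genes were called, so the block changed no call. Genes higher without overlap numbered 2 to 3, and 4 to 11 with a library left out, where 8.91% to 17.5% of all genes were. Lower ones numbered 1 to 2 (2 after quantile normalization, which adds Fto), and 1 to 7 with a library left out, where 6.06% to 14.7% of all genes were.

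The alternatives were run gene by gene for the 26 genes chosen by the naming rule, of which 14 kept their direction under all alternatives. Besides those that turned, array quality weights moved several changes, to 0.84 for Adar, 0.75 for Dus4l, 0.44 for Pus10, 0.37 for Wtap, 0.32 for Dimt1, 0.30 for Ythdc2, 0.21 for Thumpd1, 0.079 for Dus1l, 0.057 for Alyref, -0.41 for Rbm15, -0.23 for Fto, -0.16 for Alkbh5 and -0.024 for Nsun3. Other changes turned. With array quality weights Dus3l was 0.033, Emg1 -0.079, Mettl1 -0.0027 and Trmt1 0.013. Median centring, which shifts the change of every gene by the same amount, gave -0.013 for Mettl1 and -0.027 for Ythdc1. These were near 0 before it, at 0.016 and 0.0010. Quantile normalization gave -0.012 for Emg1, -0.016 for Mettl1, -0.0034 for Pus7 and -0.038 for Ythdc1. Upper-quartile scaling gave -0.024 for Mettl1, -0.0080 for Pus7 and -0.039 for Ythdc1. With a library left out, the ranges were -0.14 to 0.029 for Alkbh5, -0.039 to 0.39 for Alyref, -0.25 to 0.065 for Ctu2, -0.049 to 0.061 for Dus3l, -0.046 to 0.024 for Elp3, -0.082 to 0.12 for Emg1, -0.23 to 0.25 for Mettl1, -0.295 to 0.18 for Mettl5, -0.073 to 0.14 for Pus7, -0.24 to 0.046 for Rbm15, -0.16 to 0.14 for Trmt1 and -0.059 to 0.11 for Ythdc1. Apart from the shift of median centring, the cause was not tested. Since absolute depth is unknown, no counting interval can be given.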
